A study of Mus musculus with 8 samples.

Results

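The 2 RNAs described here are the ribosomal RNAs of the mouse mitochondrion, mt-Rnr1 (12S) and mt-Rnr2 (16S), as seen in eCLIP peak lists of the RNA demethylase ALKBH5. In eCLIP, UV light crosslinks a protein to the RNA it touches, and the RNA that comes down with the protein is sequenced. A peak was taken as a member when it lay on the mitochondrial chromosome and overlapped mt-Rnr1 (positions 70 to 1024, 955 bases) or mt-Rnr2 (positions 1094 to 2675, 1582 bases) by 1 bp or more. Positions are in GRCm39. Members were thus chosen by the position of called peaks, and 8 of the 72953 peaks of the 4 lists met the rule. The lists hold 2 and 1 members for the del-cIDR replicates and 2 and 3 for the full-length replicates.

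The del-cIDR cells carry an endogenous Alkbh5 whose product lacks the C-terminal intrinsically disordered region (genotype Alkbh5 del-cIDR). The full-length cells are wild type (WT) and make the whole protein from the endogenous gene. Both are E14TG2a mouse embryonic stem cells, grown in serum medium with LIF, the MEK inhibitor PD0325901 and the GSK3 inhibitor CHIR99021, and in both the nuclei were isolated after crosslinking. Each genotype had 2 replicates with an immunoprecipitate and an input, and the values below come from the lists of the 4 immunoprecipitates. The labels do not say whether the replicates came from separate cultures or whether the del-cIDR line is 1 clone.

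As background, both rRNAs are made inside the mitochondrion from its own circular genome. They arise from the same long precursor transcript, in which transfer RNAs mark the places where it is cut. mt-Rnr1 forms the core of the small subunit of the mitochondrial ribosome and mt-Rnr2 the core of the large subunit, which joins amino acids together. ALKBH5 removes the methyl group of N6-methyladenosine from RNA and is known mainly as a nuclear protein. A separate mark, dimethyladenosine close to the 3′ end of mt-Rnr1, is written by the methyltransferase TFB1M. In the order of genes in RefSeq, mt-Rnr1 (gene ID 17724) follows the transfer RNA gene TrnF, TrnV lies between the rRNAs, and mt-Rnr2 (gene ID 17725) is followed by TrnL1 and the complex I gene ND1. That order was taken from a name table of an older build, from which no position was used.

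Both rRNAs held peaks in lists of both genotypes, and which rRNA had the higher −log10 q differed between del-cIDR replicate 1 and both full-length lists. The −log10 q is the authors' measure of how far a peak stands out from background, corrected for the number of places tested. The 16S peak had the highest −log10 q of the whole list in both full-length replicates, while the del-cIDR lists had a low-fold 16S peak in replicate 1 and none in replicate 2. The 12S peak was present in all 4 lists with nearly the same summit, and it was longer in both del-cIDR lists. With 2 replicates per genotype a two-sided exact permutation test cannot give a p under 0.333, and the members are called peaks chosen by position, so these values are a description with no test.

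**Figure D1:**
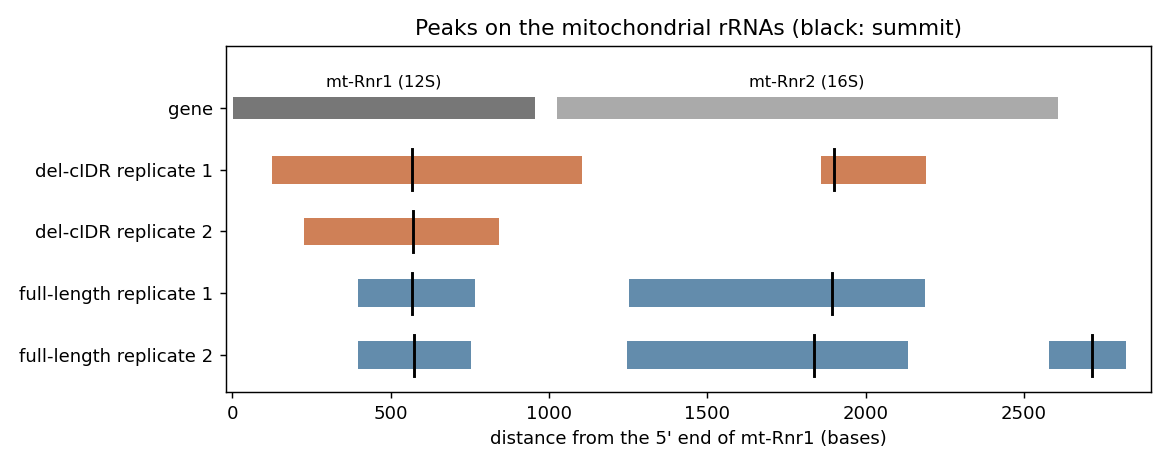
Peaks on the mitochondrial rRNAs in each list, with the distance from the 5′ end of mt-Rnr1 in bases on the horizontal axis and a row per list; bars span the peaks, black lines mark summits and grey bars the genes. The 12S summits lie within 9 bases of each other in all 4 lists, while the 16S body holds a long peak in both full-length lists, a short one in del-cIDR replicate 1 and none in del-cIDR replicate 2.

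The 12S peak of del-cIDR replicate 1 ran from 195 to 1171 and that of del-cIDR replicate 2 from 296 to 909. In the full-length lists it ran from 466 to 833 in replicate 1 and from 465 to 821 in replicate 2. Each full-length peak therefore lay wholly inside both del-cIDR peaks. The widths were 977 and 614 bp in del-cIDR and 368 and 357 bp in full-length lists, with means of 795.5 ± 257 bp and 362.5 ± 7.78 bp (SD, n = 2 per genotype). The genotypes did not overlap, and the del-cIDR replicates differed from each other far more than the full-length replicates did. The full-length replicates began 1 base apart and ended 12 bases apart.

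The longer 12S peaks of del-cIDR extended on both sides. Relative to full-length replicate 1, del-cIDR replicate 1 began 271 bases earlier and ended 338 bases later, and del-cIDR replicate 2 began 170 bases earlier and ended 76 bases later. The peak of del-cIDR replicate 1 crossed the whole 69-base gap that holds TrnV and reached 78 bases into mt-Rnr2. It was the only member that touched both rRNAs, so the 4 peaks counted on mt-Rnr1 and the 5 on mt-Rnr2 share it.

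A longer peak in del-cIDR was common among the regions that all 4 lists share. Peaks of the lists were merged where they overlapped, which gave 43029 regions over the genome, and 2022 of these (4.7%) held a peak in all 4 lists, the 12S region among them. In 68.2% of those 2022 regions the summed peak length was greater in both del-cIDR lists than in both full-length lists. The direction at 12S is thus that of most shared regions. The narrowest peak of each list was 300.0 and 301 bp in the del-cIDR and 297 and 243 bp in the full-length lists, and the median width was 325 and 331 bp in del-cIDR and 379 and 291 bp in full-length lists. The part of these widths in that share was not tested. By size the 12S region stood further out, since its shorter del-cIDR peak was 1.67 times its longer full-length peak. The median of that ratio over the 2022 regions was 1.01, and 3.26% of them reached the 12S value.

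The 12S summit hardly moved between lists. It lay at 638 and 639 in del-cIDR and at 635 and 644 in full-length lists, which is base 569, 570, 566 and 575 counted from 1 at the 5′ end of the gene. The genotype means were 569.5 ± 0.707 and 570.5 ± 6.36 bases from that end (SD, n = 2 per genotype), a difference well inside the spread of the full-length replicates. All 4 summits fell within 9 bases, against a median spread of 112 bases over the 2022 shared regions, and 1.88% of these regions had a spread of 9 bases or less. Those regions were not matched to 12S by −log10 q. Where a list held several peaks in a region, the summit of its best ranked peak was used. The summits thus lay past the middle of mt-Rnr1 and 380 to 389 bases before its 3′ end.

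Peaks covered 86.9% and 64.3% of mt-Rnr1 in the del-cIDR lists, against 38.5% and 37.4% in the full-length lists. On average 75.6% ± 15.99 was covered in del-cIDR and 38.0% ± 0.814 in full-length lists (SD, n = 2). Of the 955 bases, 614 were covered in both del-cIDR lists, 356 in both full-length lists and the same 356 in all 4. Another 245 bases were covered in both del-cIDR lists and in neither full-length list, and no base showed the reverse. The first 125 bases of the gene, from 70 to 194, held no peak in any list.

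The 16S peak ran the other way. In del-cIDR replicate 1 a peak spanned 1927 to 2260, 334 bp, and del-cIDR replicate 2 listed none on mt-Rnr2. In the full-length lists the peak spanned 1322 to 2257 in replicate 1 and 1316 to 2203 in replicate 2, widths of 936 and 888 bp with a mean of 912 ± 33.9 bp (SD, n = 2). The full-length replicates began 6 bases apart and shared 882 bases, which was 94.2% of the peak of replicate 1 and 99.3% of that of replicate 2. A peak that is not listed for del-cIDR replicate 2 says only that nothing passed the authors' limit there. The lowest −log10 q in the lists was 1.31 to 1.34.

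The del-cIDR peak on 16S matched the 3′ part of the full-length peak. It began 605 bases after the start of the peak in full-length replicate 1 and ended 3 bases past its end, so that 99.1% of it lay inside. Against full-length replicate 2, 82.9% of it lay inside. Its summit, at 1970, was 8 bases from the summit of full-length replicate 1 at 1962 and 63 bases from that of full-length replicate 2 at 1907. The full-length summits were 55 bases apart, which is close to the larger of these distances. Counted from the 5′ end of mt-Rnr2, these summits are base 877 in del-cIDR replicate 1 and bases 869 and 814 in the full-length replicates.

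The region from 1316 to 2260 held a peak in del-cIDR replicate 1 and both full-length lists. This combination of lists occurred at 393 of the 43029 regions (0.913%). Bases under a peak made up 26.0% and 0% of mt-Rnr2 in the del-cIDR lists, the 78 bases under the end of the 12S peak included, against 59.2% and 57.9% in the full-length lists. On average 13.0% ± 18.4 was covered in del-cIDR and 58.5% ± 0.894 in full-length lists (SD, n = 2). Both full-length values were above both del-cIDR values, although the del-cIDR value rests on 1 replicate. How often other regions showed a gap in this direction was not counted, so how unusual it is remains unknown. Both full-length lists and neither del-cIDR list covered 605 bases, and no base of mt-Rnr2 was covered in both del-cIDR lists.

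**Figure D2:**
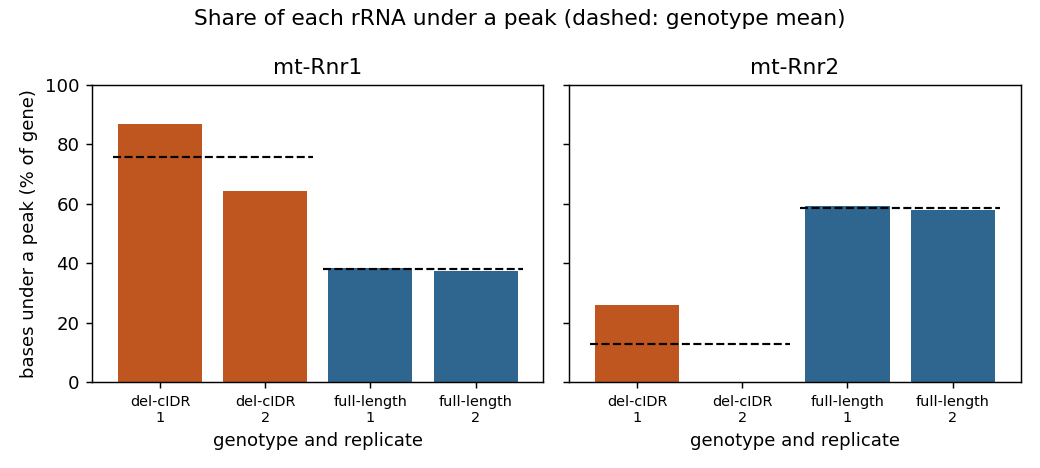
Percent of the bases of mt-Rnr1 (left) and mt-Rnr2 (right) under a peak, with a bar per list and dashed lines at the genotype means. The del-cIDR lists are higher on mt-Rnr1 (86.9% and 64.3% against 38.5% and 37.4%) and lower on mt-Rnr2 (26.0% and 0% against 59.2% and 57.9%).

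A further peak at the 3′ end of mt-Rnr2 was listed only for full-length replicate 2, from 2648 to 2890. It shared 28 bases with the rRNA, 11.5% of its width, and ran 215 bases past the end towards TrnL1 and ND1. Its summit, at 2783, lay 108 bases past the end of mt-Rnr2 and was thus outside it. This is the member with the smallest overlap, and its 243 bp are the narrowest width in that list. Regions with a peak in full-length replicate 2 alone made up 6.54% of the 43029 regions. On the 3′ side of mt-Rnr2 the nearest peak that missed the rule began 1202 bases after its end, in del-cIDR replicate 2. The distance from mt-Rnr1 to peaks on its 5′ side, around the circle, was not measured. Between 2261 and 2647, a stretch of 387 bases of mt-Rnr2, no list held a peak, and the same was true from 1172 to 1315.

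The order of the 2 rRNAs by −log10 q in del-cIDR replicate 1 was opposite to that in both full-length lists. Del-cIDR replicate 2 listed no 16S peak and so gave no such order. In del-cIDR replicate 1 the 12S peak had a −log10 q of 10920 and ranked 8 of 17584, and the 16S peak had 563 and ranked 257. In del-cIDR replicate 2 the 12S peak had 8934 and ranked 11 of 18841. In full-length replicate 1 the 16S peak had 51537 and ranked 1 of 19892, and the 12S peak had 6440 and ranked 2. In full-length replicate 2 the 16S peak had 20849 and ranked 1 of 16636, the peak at its 3′ end had 5900 and ranked 2, and the 12S peak had 3694 and ranked 6. Within a list, the −log10 q of 16S was 0.0515 times that of 12S in del-cIDR replicate 1, and 8.002 and 5.64 times in the full-length replicates. Since read numbers are unknown and ranks belong to lists of different lengths, only the order inside each list is described.

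Among the mitochondrial peaks the 12S peak led both del-cIDR lists. The 16S peak was the sixth by −log10 q of the 7 mitochondrial peaks in del-cIDR replicate 1. Peaks outside the rRNAs numbered 5 and 6 in the del-cIDR lists, against 4 and 4 in full-length lists. The best of them had a −log10 q of 2738 (rank 52) in del-cIDR replicate 1, 2755 (rank 49) in del-cIDR replicate 2, 750.04 (rank 120) in full-length replicate 1 and 960.2 (rank 32) in full-length replicate 2, each below the leading rRNA peak of its own list. In all 4 lists this was a short peak near 14 kb, from 13806 to 14106 in del-cIDR replicate 1, 13804 to 14108 in del-cIDR replicate 2, 13810 to 14108 in full-length replicate 1 and 13852 to 14107 in full-length replicate 2. All members of the full-length lists exceeded every other mitochondrial peak of their list, and so did the 12S peaks of del-cIDR.

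**Figure D3:**
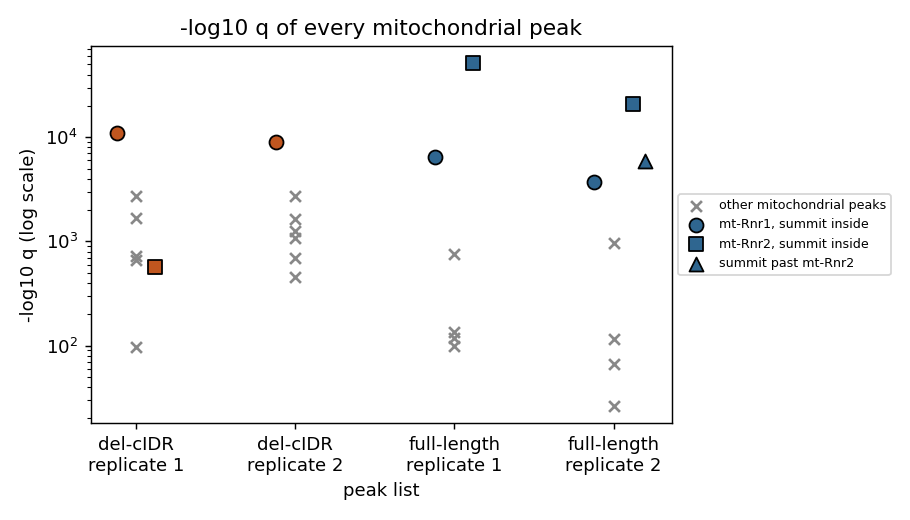
The −log10 q, on a log scale, of every mitochondrial peak in each list; circles are 12S peaks, squares 16S peaks, the triangle the peak with its summit past mt-Rnr2, and crosses all others. The 16S square stands highest in both full-length lists (51537 and 20849) and below the 12S circle in del-cIDR replicate 1 (563 against 10920).

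The next best peaks outside the rRNAs differed between lists. In del-cIDR replicate 1 they spanned 4819 to 5124 (rank 90) and 11623 to 13609 (rank 201), and in del-cIDR replicate 2 they spanned 3877 to 4178 (rank 91) and 15083 to 15388 (rank 119). In full-length replicate 1 they spanned 12163 to 13666 (rank 1037) and 11593 to 12136 (rank 1184), and in full-length replicate 2 they spanned 9873 to 11453 (rank 866) and 11627 to 13619 (rank 1581). The rRNAs held 21.0% and 11.8% of the mitochondrial bases under a peak in the del-cIDR lists, against 25.0% and 22.7% in full-length lists. On average this share was 16.4% ± 6.49 in del-cIDR and 23.9% ± 1.58 in full-length lists (SD, n = 2). The lowest full-length value lay 1.78 points above the highest del-cIDR value, and the del-cIDR replicates differed by 9.18 points.

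The members reached their high ranks at a fold enrichment of 1.28 to 3.70, from the bottom to near the middle of their lists. Fold enrichment is the ratio of the signal at a peak to the background of the peak caller, as the authors deposited it. The fold is relative to the background of its own list, so each value below is read against the other peaks of that list. The 12S peak had 3.11-fold enrichment in del-cIDR replicate 1, 2.89-fold in del-cIDR replicate 2, 2.47-fold in full-length replicate 1 and 2.22-fold in full-length replicate 2. The 16S peak had 1.28-fold in del-cIDR replicate 1 and 3.62-fold and 2.81-fold in the full-length lists, and the peak past its 3′ end had 3.70-fold. The median peak had 3.17-fold and 3.16-fold in the del-cIDR lists and 3.80-fold and 3.598-fold in those of full-length ALKBH5. Every member but the peak past the 3′ end of 16S thus lay under the median of its list. For the 12S peak, 48.1% and 40.6% of the peaks of the del-cIDR lists, and 15.1% and 10.7% of those of the full-length lists, had a lower fold. For the 16S peak this was 0.0171% in del-cIDR replicate 1, where the peak stood at position 17581 of 17584 by fold, and 45.9% and 28.8% in the full-length lists.

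At the same fold enrichment other peaks had a far lower −log10 q. Among the 1980 to 4175 peaks within 10% of the fold of a member (17 for the 16S peak of del-cIDR replicate 1), the median −log10 q was 3.24 to 10.0. No such peak had a −log10 q as high as the member it was set beside, for any of the 8 members. The highest of them had 5697, beside the 12S peak of del-cIDR replicate 1. The highest beside the 16S peaks of the full-length lists were 798 and 540. As background, at a given ratio the −log10 q of a count grows with the number of reads, and read numbers were not in the lists. Within the full-length lists the −log10 q of the 16S peak was 8.002 and 3.53 times that of the peak of rank 2.

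**Figure D4:**
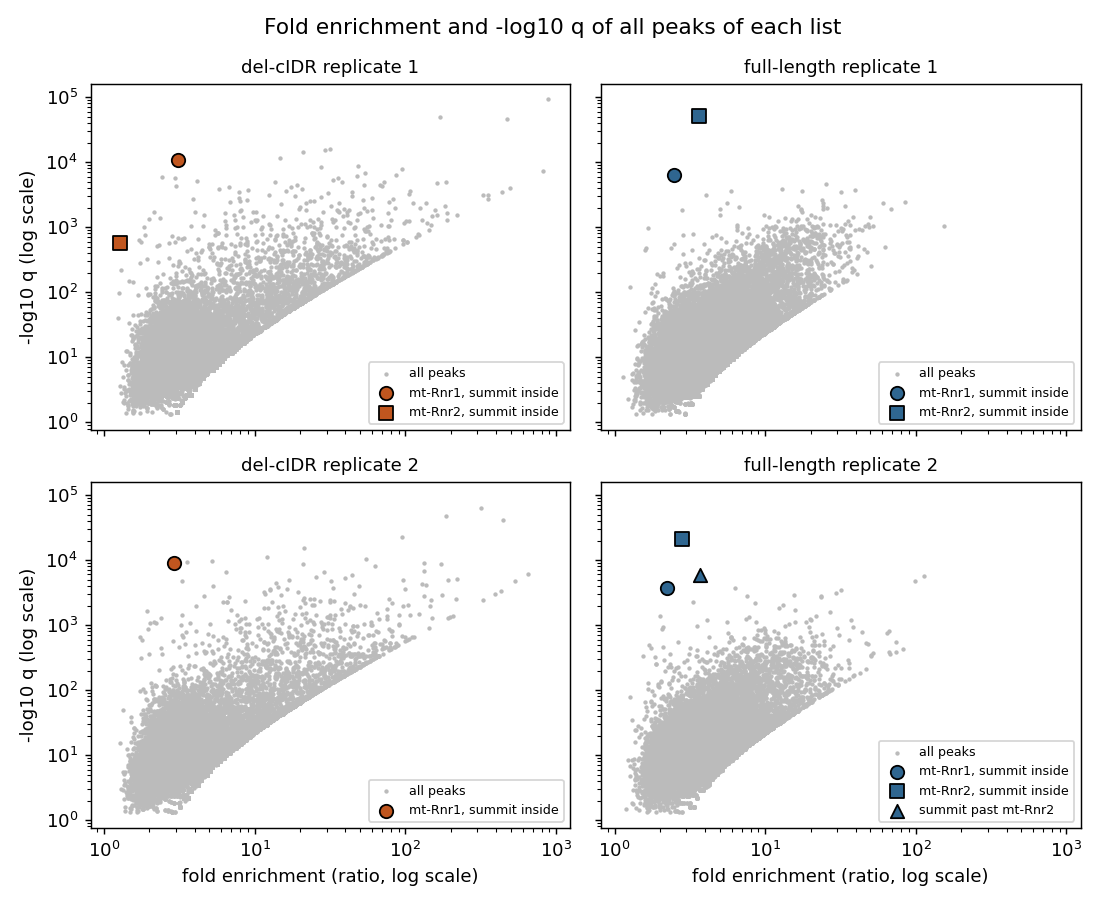
Fold enrichment against −log10 q, both on log scales, of all peaks of each list (grey), with del-cIDR lists left and full-length lists right; circles are 12S peaks, squares 16S peaks and the triangle the peak past mt-Rnr2. The members sit on the upper left edge of each cloud, at 1.28-fold to 3.70-fold enrichment with a −log10 q of 563 to 51537.

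The regions most like 12S were found by the rank by −log10 q and the fold enrichment of the best peak, each as a percentile of its list, which gives 8 values for a region over the 4 lists. Over the other 2021 regions shared by all 4 lists the median distance from 12S was 128 percentile points, and the 5 nearest lay at 21.8 to 26.7. The nearest and the fourth were on the mitochondrial chromosome as well, from 9839 to 11556 and from 11593 to 13666. In the nearest, 57.2% and 50.3% of the del-cIDR lists had a lower fold, against 1.59% and 4.62% of the full-length lists. For the fourth these were 36.7% and 54.0% against 2.69% and 0.577%. A higher fold percentile in del-cIDR was thus not particular to 12S, although these values also served to pick the regions. The other 3 spanned 90764467 to 90765128 of chromosome Y, 71642618 to 71643097 of chromosome 1 and 134654428 to 134654826 of chromosome 4. The main 16S region was not compared in this way because it lacked a peak in del-cIDR replicate 2.

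Some limits bear on all these values. Mitochondrial RNA lies outside the nucleus, and how much of it was in the isolated nuclei was not tested. No peak carried a strand, and the nuclear genome holds copies of mitochondrial sequence, so the strand of the RNA and the assignment of reads between the copies were not tested. The labels and files do not say whether the inputs were the background of the peak caller.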

How the data were processed

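Peak lists of the 4 immunoprecipitates were used, and the 4 inputs were not analysed here. The submitters' processing notes name the build GRCm39 and the tools MACS2, UMI-tools, STAR and cutadapt. Which step each tool ran, with which version and settings, was not stated in the labels or files used here. The authors deposited 1 list per library, so peaks had been called per replicate. For each peak the authors deposited a score, a fold enrichment (a ratio), −log10 of the p-value and of the q-value, and how far the summit lies from the peak start. The files labelled wt were read as full-length and those labelled KI as del-cIDR, since no other genotype exists in the series. The depth per library is unknown.

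Positions were written 1-based. Members were found by overlap of 1 bp or more with the given intervals of both rRNAs, and ranked within their list by −log10 q. Peaks were merged over the 4 lists where they overlapped. This step was checked only on simulated lists with well separated sites and at most 1 peak per list at a site. Regions with several peaks of the same list were not simulated. Every member is named. The 5 regions nearest in rank and fold and the 3 best ranked other mitochondrial peaks per list followed a fixed rule. The members and rules were chosen with earlier results of these data known. Python 3.11.15, pandas 2.3.3 and numpy 2.4.6 were used. No sequence is shown, since no genome of this build was used here.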

Additional observations from a re-analysis of the deposited data

How the results depend on the processing

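With only peaks of −log10 q of at least 5, of at least 2-fold enrichment, with 16636 peaks from each list, 50% of the peak or its summit inside the rRNA, or peaks within 100 bp joined, the direction of the differences (del-cIDR minus full-length) in members per list and in percent of mt-Rnr1 or mt-Rnr2 covered was kept. The number of members differed by -1, against an SD of 0.707 in each genotype (n = 2), and both replicate 1 lists held 2 members. Over all alternatives and over lists with a replicate left out it differed by -1.5 to -0.5. The difference was -0.5 with 50% of the peak or its summit inside the rRNA. Those rules drop the peak of full-length replicate 2 that has 11.5% of its width in mt-Rnr2. It was also -0.5 without del-cIDR replicate 2 or full-length replicate 2. With at least 2-fold enrichment, and without del-cIDR replicate 1 or full-length replicate 1, it was -1.5. The −log10 q limit, the equal list lengths and the joining changed no member, so they could not test these differences. The weakest member by −log10 q had 563 and ranked 257, well inside both limits. The mt-Rnr1 difference stayed at 37.6 points under every alternative other than leaving out a replicate, so none of them tested it. The minimum of 2-fold removed the 16S peak of del-cIDR replicate 1, and the mt-Rnr2 difference was then -56.1 points, against -45.5 with all peaks. With 50% of the peak or its summit inside the rRNA it was -47.1 points. Without each replicate in turn, the difference was 26.3 to 49.0 points for mt-Rnr1 and -58.5 to -32.5 points for mt-Rnr2, with both ends of each range set by leaving out a del-cIDR replicate. Bases of mt-Rnr1 covered in every list kept numbered 356 to 368, and those of mt-Rnr2 0 to 277, with 277 reached without del-cIDR replicate 2. The mean summit difference on mt-Rnr1 was -1 base and ranged from -5.50 to 3.50, so its sign depended on the full-length replicate kept. Ranks changed with the value ranked. By fold enrichment the 12S peak stood at 9121 and 11195 in del-cIDR and at 16888 and 14857 in full-length lists, and the 16S peak at 17581 in del-cIDR replicate 1 and at 10757 and 11848 in the full-length lists. Ranks by −log10 p equalled those by −log10 q. Ranks belong to single lists, so leaving out a replicate gives them no value. No paired fit was run, since no result comes from a test and the labels do not say that a replicate number marks a shared culture. The unknown depth limits what a missing peak can show.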
